A study of Mus musculus with 6 samples.

Results

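The 32 genes described here drive DNA replication and cell division, and they were followed in RNA sequencing of mouse corneal epithelium, the stratified cell layer on the outer face of the cornea. They were named by symbol, and all 32 were found among the 25006 genes of the count table and among the 12847 genes with enough counts to be tested. The genes fall into 2 groups by the step they serve. The 12 G1/S genes start and carry out DNA replication, and the 20 G2/M genes build the spindle and divide the chromosomes.

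There were 3 libraries from mice labelled EphA2 null and 3 from wild type mice. The mutant is written EphA2-/- in the series' design text, and EphA2 is a receptor tyrosine kinase for ephrin-A ligands on neighbouring cells. Total RNA came from isolated epithelial sheets. Strain, sex and age, the number of mice behind each library and the allele are not stated in the labels, so p-values measure the spread between these 6 libraries, which may be technical.

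Cells enter the cycle when cyclin E and E2F factors switch on the genes for replication. The 6 MCM proteins form the helicase that opens DNA, and Pcna encodes the ring that holds polymerases on it. Later, cyclins A and B with the kinase Cdk1 drive mitosis, and most mitotic transcripts accumulate only in cells that approach division. In the corneal epithelium the dividing cells sit in the basal layer, and their daughters move upwards, stop dividing and are shed.

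Epha2 itself did not show the labelled genotype: its level was 284, 652 and 578 CPM (the count relative to the TMM-scaled library size) among libraries labelled EphA2 null (1, 2 and 3), against 298, 253 and 562 CPM among wild type libraries, so each direction between genotypes rests on the label. A count summed over a gene is not a check where an allele removes only part of it. The sample titles carry numbers in a higher range (the libraries labelled EphA2 null 2 and 3, and wild type 3) and a lower range (the library labelled EphA2 null 1, and wild type 1 and 2). Libraries labelled EphA2 null 2 and 3 share 1 title number, as do wild type 1 and 2, so each range holds 2 distinct numbers, and the labels do not say what the numbers stand for. Each title also carries a letter after the number (N, R or B), which differs between libraries that share a number. The letters are not explained either. Epha2 was higher in the higher range within both labelled genotypes. Its log2 fold change, higher over lower title numbers, was 1.07 ± 0.11 (SE; adjusted p = 0.00174, edgeR's quasi-likelihood test with genotype in the model). The 3 libraries of 1 range lay together on the first principal component, which held 62.0% of the variance. Total counts ran from 15308013 to 27586942 per library. The corneal keratin gene Krt12 was at 13056 CPM or more and the basal keratin gene Krt5 at 22791 CPM or more in each library. The keratocyte genes Kera and Lum had 0 counts in all 6. Most of the 12 listed keratocyte and fibroblast markers had counts, with 3 to 5 of the 12 at 0 in a library. Their summed level was 45.9 to 68.2 CPM.

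Between the genotypes, no cell cycle gene passed the test. Of the 32 genes, 0 were called higher and 0 lower by labelled EphA2 null against wild type (edgeR's quasi-likelihood test, adjusted p under 0.05 over all tested genes), where 0.00778% of all tested genes were called. At an unadjusted p under 0.05 edgeR gave 0 of the 32, against 1.18% of all tested genes, and DESeq2 and limma voom also called 0 of the 32 and gave 0 with an unadjusted p under 0.05. The log2 fold changes, labelled EphA2 null over wild type, ran from -0.28 to 0.33, with SEs of 0.16 to 0.36. Each of the 32 95% intervals lay between -0.99 and 0.76, so a change of 2-fold or more lay outside every interval. Some smaller changes lay inside 1 or more of the intervals. With the title number range as a second term the SEs were 0.09 to 0.22, and the intervals lay between -0.74 and 0.65.

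The summed level of the 32 genes was 2131, 1316 and 1564 CPM among libraries labelled EphA2 null (1, 2 and 3), against 2093, 1941 and 1413 CPM among wild type libraries (1, 2 and 3). Summed over the 12 G1/S genes it was 463, 324 and 453 CPM among libraries labelled EphA2 null (1, 2 and 3), against 445, 453 and 411 CPM among wild type libraries (1, 2 and 3). For the 20 G2/M genes the sum was 1668, 992 and 1112 CPM among libraries labelled EphA2 null (1, 2 and 3), against 1647, 1488 and 1002 CPM among wild type libraries (1, 2 and 3). The genotypes overlapped in all 3 sums, and the lowest G2/M sums belonged to the 3 libraries with higher title numbers. In bulk RNA, fewer dividing cells and less of these transcripts per dividing cell cannot be told apart.

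**Figure D1:**
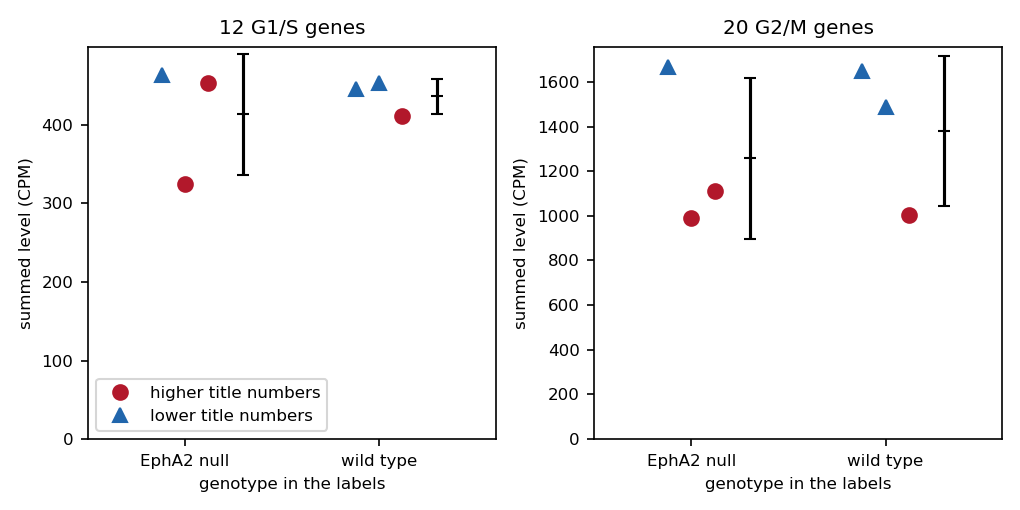
Summed level (CPM) of the 12 G1/S genes (left panel) and the 20 G2/M genes (right panel) in each of the 6 libraries, by labelled genotype; circles are higher and triangles lower title numbers, and the bars at the side give the mean ± SD of 3 libraries. The G2/M sums of the 3 circles lie between 992 and 1112 CPM and those of the 3 triangles between 1488 and 1668 CPM, in both genotypes.

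The direction of the small genotype differences depended on whether the title number range was in the model. With genotype alone in the model, 27 of the 32 genes lay below 0 with a median log2 fold change of -0.12, while 46.9% of all tested genes lay below 0 and their median was 0.01. With the title number range as a second term, 12 of the 32 lay below 0 (50.2% of all tested genes), the median was 0.05, and again 0 genes were called. The lower range compares 1 library labelled EphA2 null with 2 of wild type, and there 21 of 32 genes were above 0 with a median of 0.09. In the higher range, with 2 libraries against 1, 22 of 32 were above 0 with a median of 0.04.

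Ccne1, which encodes a cyclin E that starts replication with Cdk2, had the largest genotype difference of the 32 genes. Its level was 13.8, 12.1 and 14.1 CPM among libraries labelled EphA2 null, against 11.1, 8.91 and 11.9 CPM among wild type libraries. All 3 libraries labelled EphA2 null lay above all 3 wild type libraries, and Ccne1 was the only one of the 32 separated in this way, against 1.71% of all tested genes in that direction and 3.73% in either. Its genotype log2 fold change was 0.33 ± 0.17 (SE, n = 3 per group), the 95% interval was -0.07 to 0.73 and the adjusted p was 0.9996 in edgeR, so it did not pass. Its partner gene Ccne2 had 13.0, 6.78 and 7.65 CPM among libraries labelled EphA2 null, against 11.4, 11.9 and 8.71 CPM among wild type libraries, with overlapping groups and a genotype log2 fold change of -0.23 ± 0.28. E2f1, a transcription factor that switches on replication genes, was the least abundant of the 32 at 4.40, 3.59 and 5.26 CPM among libraries labelled EphA2 null, against 4.82, 4.19 and 6.07 CPM among wild type libraries, and its groups overlapped with a genotype log2 fold change of -0.18 ± 0.24.

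By title number, more of the same genes differed. In the model with both terms, 18 of the 32 genes (56.3%) were lower and 0 higher in the 3 libraries with higher than in the 3 with lower title numbers, at an adjusted p under 0.05 over all tested genes. Among all tested genes 20.1% were lower by the same rule and 24.6% higher, and with library size only as the scaling 28.5% were lower and 19.1% higher. The median log2 fold change, higher over lower title numbers, was -0.48 for the 32 genes and -0.01 for all tested genes. The same 18 genes were the ones whose 3 libraries with higher numbers all lay below the 3 with lower numbers, against 28.8% of all tested genes. Because earlier results of these data had shown that the libraries separate by title number, these counts describe that separation for cell cycle genes. Leaving out the library labelled EphA2 null 1, the sole one of its label in the lower range, 9 of the 18 passed and 0 others, with a median over the 32 genes of -0.42. In that fit 1.94% of all tested genes were lower and 6.53% higher. The fit without the library labelled EphA2 null 1 takes the difference from wild type 3 against wild type 1 and 2 alone. With libraries that share a title number summed, the same 18 were called.

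**Figure D2:**
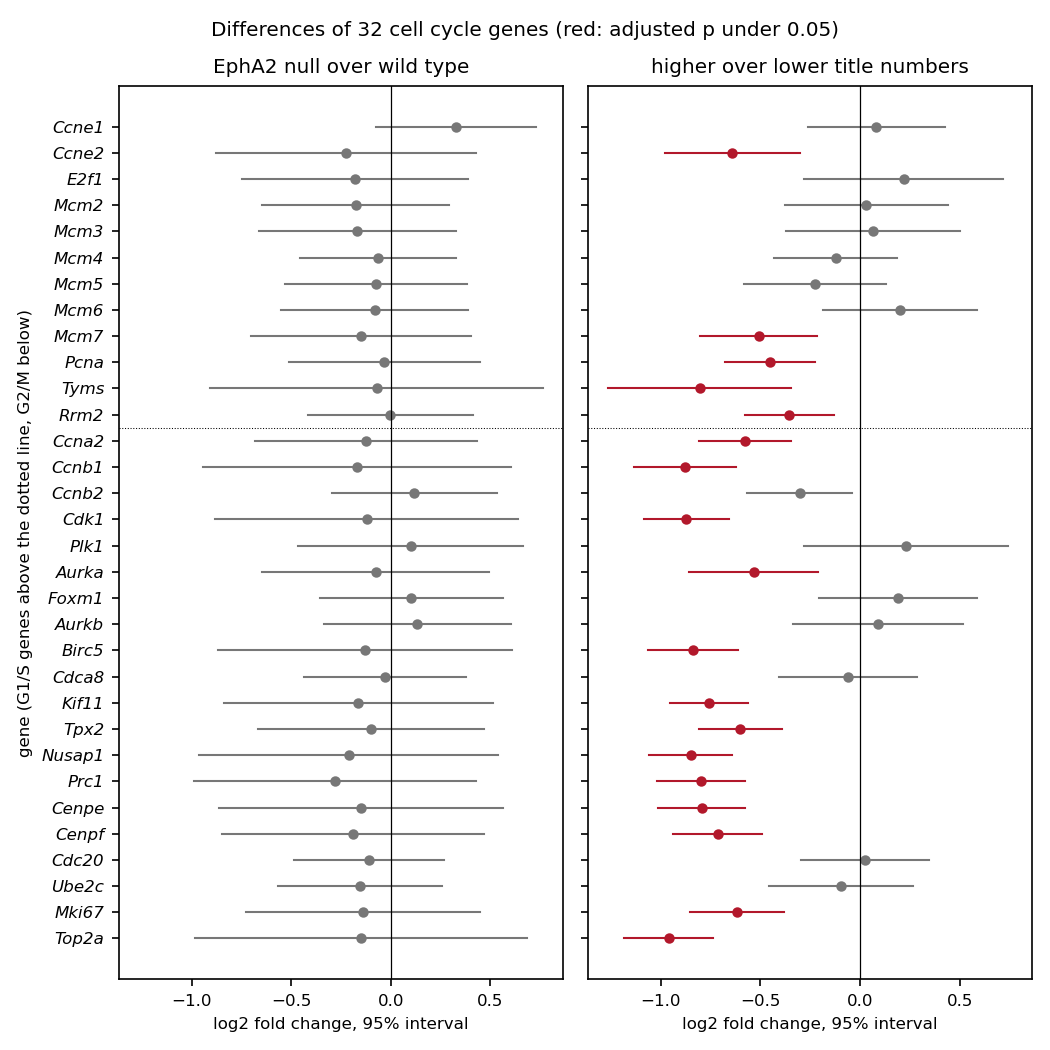
Log2 fold change of each of the 32 genes with its 95% interval, for labelled EphA2 null over wild type (left panel) and for higher over lower title numbers in the model with both terms (right panel); G1/S genes stand above the dotted line and G2/M genes below, and red marks an adjusted p under 0.05. No gene is red on the left, and 18 are red on the right, all below 0 and from -0.96 to -0.35.

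Among the G2/M genes, 13 of 20 were lower in the libraries with higher title numbers, against 20.1% of all tested genes. The median over the 20 was -0.61. The strongest was Top2a, the topoisomerase that untangles sister chromosomes and is made mostly by dividing cells. Top2a was at 357, 164 and 189 CPM among libraries labelled EphA2 null, against 325, 298 and 166 CPM among wild type libraries. The libraries labelled EphA2 null 2 and 3 and wild type 3 were the low ones, so each genotype held both levels. The mean was 173 ± 14.1 CPM with higher and 326 ± 29.8 CPM with lower title numbers (SD, n = 3 each). The title number log2 fold change was -0.96 ± 0.10 (SE; adjusted p = 0.00174, edgeR). Mki67, which encodes the proliferation marker Ki-67 that coats mitotic chromosomes, had 379, 217 and 264 CPM among libraries labelled EphA2 null, against 365, 345 and 238 CPM among wild type libraries. It showed the same split, with a title number log2 fold change of -0.62 ± 0.10 (adjusted p = 0.00325, edgeR), although without the library labelled EphA2 null 1 its adjusted p was 0.0603. Between the genotypes Top2a had -0.15 ± 0.36 and Mki67 -0.14 ± 0.25.

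The kinase Cdk1 and its cyclins were lower with higher title numbers, with 1 exception. Cdk1, the kinase that starts mitosis, was at 69.1, 37.3 and 39.3 CPM among libraries labelled EphA2 null, against 66.0, 58.8 and 33.6 CPM among wild type libraries. Its cyclin partner gene Ccnb1 was at 21.8, 12.1 and 12.4 CPM among libraries labelled EphA2 null, against 20.2, 21.1 and 10.8 CPM among wild type libraries. In both, the 3 libraries with lower numbers lay above the other 3 without overlap, and the title number log2 fold changes were -0.87 ± 0.09 for Cdk1 and -0.88 ± 0.11 for Ccnb1 (adjusted p = 0.00174 and 0.00191, edgeR). Ccna2, the cyclin of S phase and early mitosis, had 76.3, 47.8 and 54.0 CPM among libraries labelled EphA2 null, against 78.0, 67.1 and 48.9 CPM among wild type libraries and a title number log2 fold change of -0.58 ± 0.10 (adjusted p = 0.00379). The exception was Ccnb2, a second B-type cyclin, at 38.8, 35.4 and 29.4 CPM among libraries labelled EphA2 null, against 36.2, 32.4 and 26.9 CPM among wild type libraries. Wild type 2, with a lower number, lay below the library labelled EphA2 null 2, so the ranges overlapped, and the log2 fold change was -0.30 ± 0.12 (adjusted p = 0.0608, edgeR), which missed the threshold.

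The remaining mitotic regulators did not form one block. Aurka, a kinase of the spindle poles, was at 25.5, 17.5 and 20.6 CPM among libraries labelled EphA2 null, against 28.4, 22.4 and 16.1 CPM among wild type libraries. Its ranges did not overlap, and its title number log2 fold change was -0.53 ± 0.14 (adjusted p = 0.0171, edgeR). Foxm1, the transcription factor that drives many mitotic genes, had 17.7, 20.2 and 27.5 CPM among libraries labelled EphA2 null, against 22.2, 19.0 and 19.7 CPM among wild type libraries, with overlapping ranges and a log2 fold change of 0.19 ± 0.17 that did not pass (adjusted p = 0.397). Plk1, a kinase of mitotic entry and spindle assembly, lay between 12.3 and 21.4 CPM in the 6 libraries and had 0.23 ± 0.22 (adjusted p = 0.428).

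In the chromosomal passenger complex, which corrects faulty attachments of chromosomes to the spindle, 1 of 3 genes was lower, against 20.1% of all tested genes. Birc5, the survivin subunit, was at 38.6, 21.7 and 22.7 CPM among libraries labelled EphA2 null, against 36.2, 35.0 and 19.4 CPM among wild type libraries. The ranges were separate, with a title number log2 fold change of -0.84 ± 0.10 (adjusted p = 0.00178, edgeR). Aurkb, the kinase of the same complex, had 15.2, 15.5 and 20.6 CPM among libraries labelled EphA2 null, against 18.6, 13.1 and 15.0 CPM among wild type libraries, and the ranges overlapped with a log2 fold change of 0.09 ± 0.19 (adjusted p = 0.725). Cdca8, the borealin subunit, lay between 25.0 and 36.1 CPM and had -0.06 ± 0.15 with a 95% interval of -0.41 to 0.28. Aurkb and Cdca8 thus did not pass, and their intervals leave room for a modest difference either way.

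All 6 spindle and kinetochore genes were lower in the libraries with higher title numbers, against 20.1% of all tested genes. Kif11, the motor that pushes spindle poles apart, was at 78.0, 44.2 and 46.2 CPM among libraries labelled EphA2 null, against 74.1, 70.6 and 43.7 CPM among wild type libraries. Nusap1, which binds and stabilises spindle microtubules, had 76.9, 39.8 and 42.3 CPM among libraries labelled EphA2 null, against 74.8, 68.0 and 41.2 CPM among wild type libraries. In each of these genes the 3 libraries with higher numbers lay within a narrow band, and the log2 fold changes were -0.76 ± 0.09 for Kif11 and -0.85 ± 0.09 for Nusap1 (adjusted p = 0.00174 and 0.00174, edgeR). Prc1, which bundles microtubules between separating chromosomes, was at 84.0, 46.7 and 52.4 CPM among libraries labelled EphA2 null, against 91.2, 82.3 and 48.6 CPM among wild type libraries and had -0.80 ± 0.10. Cenpe, a kinetochore motor, was at 82.0, 43.9 and 46.0 CPM among libraries labelled EphA2 null, against 77.8, 68.4 and 44.4 CPM among wild type libraries, with a log2 fold change of -0.80 ± 0.10. Cenpf, another large kinetochore protein, had 139, 73.7 and 83.5 CPM among libraries labelled EphA2 null, against 133, 121 and 83.4 CPM among wild type libraries. Tpx2, which starts microtubule growth and activates Aurka, was at 71.0, 44.1 and 46.5 CPM among libraries labelled EphA2 null, against 67.7, 61.4 and 44.0 CPM among wild type libraries. The title number log2 fold changes of Cenpf and Tpx2 were -0.71 ± 0.10 and -0.60 ± 0.09, and without the library labelled EphA2 null 1 Tpx2 had an adjusted p of 0.0501. Prc1 had the most negative genotype value of the 32, -0.28 ± 0.30, with a 95% interval of -0.99 to 0.43.

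Neither gene of mitotic exit passed. Cdc20, an activator of the anaphase-promoting complex that marks mitotic proteins for destruction, was at 32.6, 38.6 and 37.2 CPM among libraries labelled EphA2 null, against 45.6, 35.3 and 36.0 CPM among wild type libraries. Ube2c, the ubiquitin-conjugating enzyme of that complex, was at 23.7, 29.2 and 26.0 CPM among libraries labelled EphA2 null, against 33.8, 30.2 and 23.9 CPM among wild type libraries. Wild type 1 was the highest library in both and the library labelled EphA2 null 1 the lowest, although both carry lower title numbers. The title number log2 fold changes were 0.03 ± 0.14 for Cdc20 and -0.10 ± 0.16 for Ube2c (adjusted p = 0.896 and 0.644, edgeR), and the genotype values were -0.11 ± 0.16 and -0.15 ± 0.18.

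**Figure D3:**
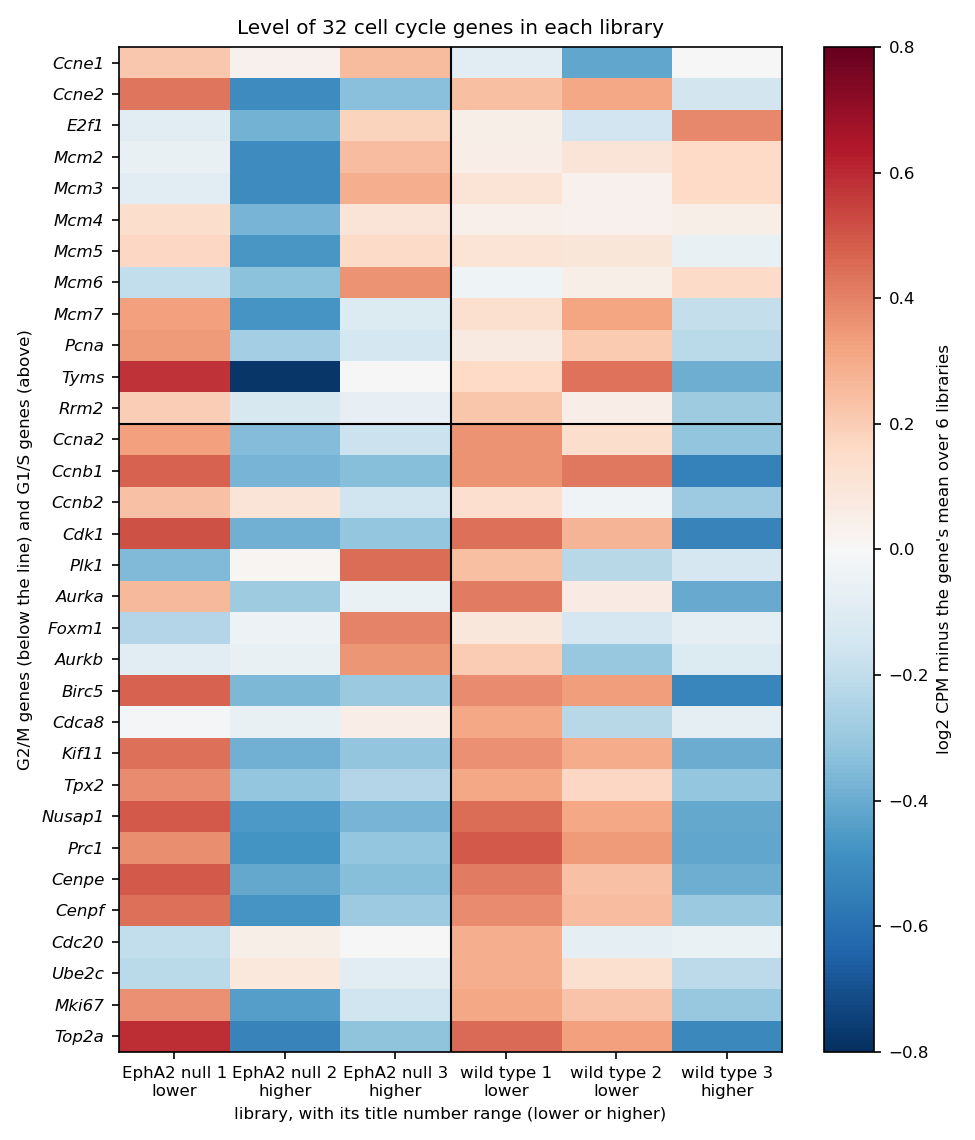
Level of each of the 32 genes in each of the 6 libraries as log2 CPM minus the gene's mean over the 6 libraries (colour scale, blue below and red above the mean), with labelled EphA2 null to the left and wild type to the right, the title number range under each library, and G1/S genes above the horizontal line. Most G2/M rows are red in the library labelled EphA2 null 1 and wild type 1 and 2 and blue in the other 3, and the MCM rows are blue mainly in the library labelled EphA2 null 2.

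Replication genes split by title number only in part. Of the 12 G1/S genes, 5 were lower in the libraries with higher title numbers and 0 higher, and the median of the 12 was -0.17. Of all tested genes 20.1% were lower and 24.6% higher. Pcna, the polymerase clamp, was at 61.5, 40.3 and 44.1 CPM among libraries labelled EphA2 null, against 51.2, 56.2 and 41.8 CPM among wild type libraries. Its log2 fold change of -0.45 ± 0.10 passed (adjusted p = 0.00805, edgeR), as did that of Mcm7, a helicase subunit at 42.1, 24.3 and 31.1 CPM among libraries labelled EphA2 null, against 36.7, 41.8 and 29.5 CPM among wild type libraries, with -0.51 ± 0.13 (adjusted p = 0.0140). Both enzymes of nucleotide supply passed. Tyms, thymidylate synthase, was at 29.6, 11.6 and 19.8 CPM among libraries labelled EphA2 null, against 22.1, 26.7 and 15.1 CPM among wild type libraries and had -0.80 ± 0.20. Rrm2, the regulated subunit of ribonucleotide reductase, was at 55.3, 44.2 and 46.2 CPM among libraries labelled EphA2 null, against 56.3, 50.0 and 39.7 CPM among wild type libraries and had -0.35 ± 0.10 (adjusted p = 0.0134 for Tyms and 0.0191 for Rrm2). Ccne2, with -0.64 ± 0.15 (adjusted p = 0.0102), was the fifth. Without the library labelled EphA2 null 1 none of these 5 passed, where 1.94% of all tested genes were lower.

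The other 5 helicase genes did not pass. Mcm2 was at 41.1, 30.3 and 50.8 CPM among libraries labelled EphA2 null, against 44.5, 45.9 and 47.8 CPM among wild type libraries. Mcm3 was at 32.9, 24.7 and 43.0 CPM among libraries labelled EphA2 null, against 37.9, 35.9 and 39.3 CPM among wild type libraries. For both the ranges overlapped, and the title number log2 fold changes were 0.03 ± 0.18 and 0.07 ± 0.19 (adjusted p = 0.902 and 0.798, edgeR). Mcm4, Mcm5 and Mcm6 lay between 35.8 and 72.8 CPM in the 6 libraries, with log2 fold changes of -0.12 ± 0.14, -0.23 ± 0.16 and 0.20 ± 0.17. Leaving out EphA2 null 3 (as labelled), Mcm5 passed (-0.37, adjusted p = 0.0416, edgeR), and with offsets for GC share and transcript length, added after seeing the data, it was at -0.42 (adjusted p = 0.0752) and Mcm2 at -0.38. All 6 helicase genes, and 10 of the 12 G1/S genes, were lowest in the library labelled EphA2 null 2, which has a higher title number. The ratio of the G2/M sum to the G1/S sum was 3.60, 3.06 and 2.45 among libraries labelled EphA2 null (1, 2 and 3), against 3.70, 3.28 and 2.44 among wild type libraries. These ratios mix genes of different length and only compare libraries.

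Within the genotypes, the median log2 difference of all 32 genes was -0.48 between the 2 higher libraries and the 1 lower library labelled EphA2 null, with 25 of 32 below 0. Between the 1 higher and the 2 lower wild type libraries it was -0.42, with 26 of 32 below 0. The medians of all tested genes were -0.01 and 0.01. The 18 called genes lay below 0 in both, which follows from their ranges not overlapping. These values have 1 library on one side and carry no test.

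Per kilobase of the longest coding transcript, Top2a was the most abundant of the 32 genes at a mean of 47.8 CPM per kb over the 6 libraries. Pcna followed with 32.4 and Mki67 with 30.0 CPM per kb. At the low end were E2f1 with 1.71, Ccne2 with 3.29 and Foxm1 with 4.52 CPM per kb.

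The genes that passed had transcripts with a lower GC share, on the median, than those that did not. The 18 genes that were lower with higher title numbers had a median GC share of 45.8%, and the 14 that were not called had a median of 52.8%. Top2a has 43.4%, Nusap1 41.8% and Kif11 42.2%, whereas Cdc20 has 55.6%, Plk1 56.0% and E2f1 58.3%. Across the 32 genes the title number log2 fold change and the GC share had a Pearson r of 0.75 and a Spearman rho of 0.73. Across 12841 tested genes the same values were 0.44 and 0.48. With log2 transcript length the Pearson r was -0.39 across the 32 genes and 0.25 across the 12841. The median transcript length was 3248.5 bases for the 18 genes and 2477 for the 14. These are descriptions across genes measured in the same 6 libraries, and genes are not independent replicates.

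All tested genes were divided into 4 equal classes by GC share, and in each class the median of the cell cycle genes lay below that of all genes. In the class with the lowest GC share, the median title number log2 fold change of all tested genes was -0.31 and 40.1% were called lower, and all 8 cell cycle genes in that class were called, with a median of -0.78. The next class had a median of -0.09 with 21.6% called lower, and 8 of the 11 cell cycle genes in it were called. In the third class 2 of 8 and in the highest 0 of 5 were called, where 13.0% and 5.79% of all tested genes were. With GC share and transcript length as offsets in the model, an alternative added after seeing the data, 14 of the 18 genes were still called lower and 0 of the others, with a median of -0.39 over the 32, and 8.83% of all tested genes were lower. Ccne2, Pcna, Rrm2 and Aurka were no longer called, with log2 fold changes of -0.06, -0.05, -0.09 and -0.44. Ccnb1 was at -0.57 and Nusap1 at -0.53 in that model. The sign turned for 7 genes that were called in neither model: with the offsets Foxm1 was at -0.32, E2f1 at -0.23, Mcm2 at -0.38, Mcm3 at -0.11, Cdc20 at -0.05, Mcm4 at 0.02 and Cdca8 at 0.03. The part of base composition in the difference was not tested beyond this.

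**Figure D4:**
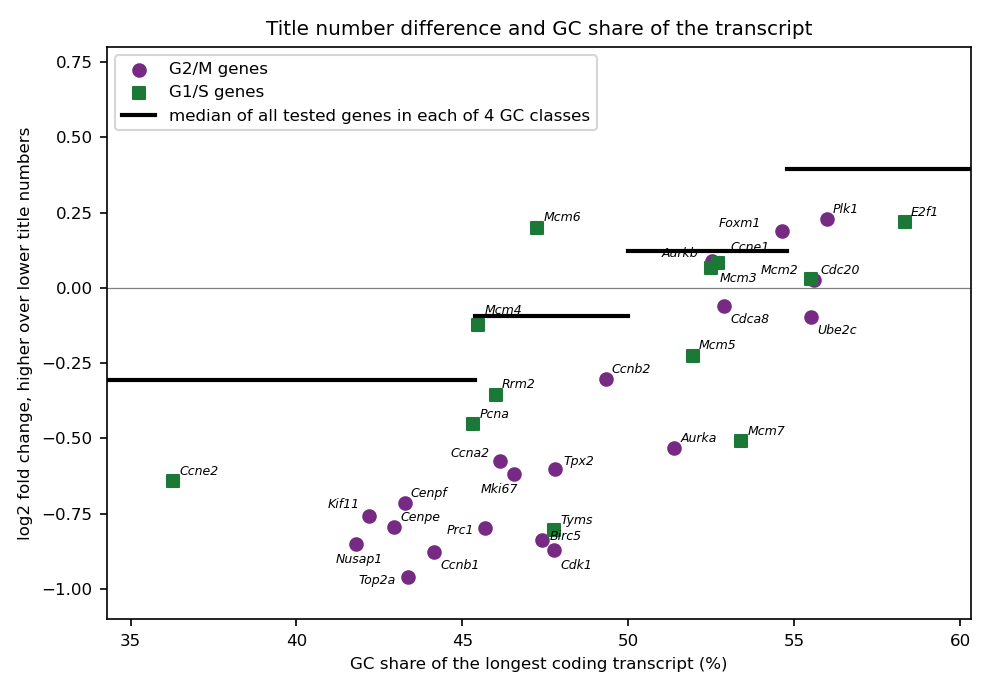
Title number log2 fold change (higher over lower, y axis) of the 32 genes against the GC share of the longest coding transcript (%, x axis), with circles for G2/M and squares for G1/S genes; black lines give the median of all tested genes in each of 4 equal classes by GC share, the outer classes running past the axis. The points climb from Top2a, Nusap1 and Kif11 at the lower left to Plk1 and E2f1 at the upper right. The 13 called G2/M genes all lie below the line of their class. That follows from the call, since no called gene was above -0.35 and the lowest line is at -0.31.

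The promoters of these genes hold known cell cycle motifs, which are shown here because many G2/M genes were lower together. In G2/M promoters the CHR (cell cycle genes homology region) binds repressive and activating cell cycle complexes, often beside CCAAT boxes bound by NF-Y, and E2F sites serve G1/S genes. RefSeq windows (GRCm38.p6) from 250 bases before to 50 after the start were given for 26 of the 32 genes, with 2 windows for Mcm7 and Prc1. They were searched on both strands for the CHR as TTTGAA or TTCGAA, for CCAAT, and for E2F sites as TTTCCCGC, TTTCGCGC, TTTGCCGC or TTTGGCGC. Of 16 G2/M genes with a window, 12 held both a CHR and a CCAAT match, against 7.53% of all 32851 promoter windows. Of the 10 G1/S genes 4 held an E2F match, against 2.27% of all windows, and 2 held both a CHR and a CCAAT match. By title number call, 7 of 11 G2/M genes called lower and 5 of 5 not called held both a CHR and a CCAAT match.

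The 250 bases before the start follow for Top2a and Cdk1, which were called lower, for Cdc20, which was not, and for the helicase gene Mcm6 as a G1/S example. Capitals mark matches on either strand, so that ATTGG is a CCAAT box and TTCAAA a CHR read on the other strand.
Top2a promoter (chr11:99024190-99024439, minus strand): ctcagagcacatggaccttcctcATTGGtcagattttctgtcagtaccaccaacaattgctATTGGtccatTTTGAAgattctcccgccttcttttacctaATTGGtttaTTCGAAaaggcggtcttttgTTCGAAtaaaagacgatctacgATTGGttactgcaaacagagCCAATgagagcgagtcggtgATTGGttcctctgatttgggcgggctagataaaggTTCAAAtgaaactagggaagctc
Cdk1 promoter (chr10:69352913-69353162, minus strand): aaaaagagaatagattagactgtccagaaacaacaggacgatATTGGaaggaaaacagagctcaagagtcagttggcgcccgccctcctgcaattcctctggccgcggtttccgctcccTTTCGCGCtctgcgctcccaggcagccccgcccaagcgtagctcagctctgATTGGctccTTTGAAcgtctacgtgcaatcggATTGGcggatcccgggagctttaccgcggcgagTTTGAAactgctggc
Cdc20 promoter (chr4:118437344-118437593, minus strand): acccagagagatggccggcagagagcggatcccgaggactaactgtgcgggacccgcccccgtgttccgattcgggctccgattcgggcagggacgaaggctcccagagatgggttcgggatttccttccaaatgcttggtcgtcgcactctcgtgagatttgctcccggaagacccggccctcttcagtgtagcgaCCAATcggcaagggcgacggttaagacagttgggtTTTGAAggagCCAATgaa
Mcm6 promoter (chr1:128359706-128359955, minus strand): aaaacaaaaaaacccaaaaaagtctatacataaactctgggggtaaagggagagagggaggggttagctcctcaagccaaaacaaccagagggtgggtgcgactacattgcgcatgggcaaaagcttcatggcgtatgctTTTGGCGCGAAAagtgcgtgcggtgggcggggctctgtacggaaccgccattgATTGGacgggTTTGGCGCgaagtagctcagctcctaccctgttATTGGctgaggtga
Top2a holds 4 CHR and 6 CCAAT matches in these bases. Cdk1 has 2 CHR matches, 3 CCAAT matches and 1 E2F match, Cdc20 has 1 CHR and 2 CCAAT matches, and Mcm6 has 2 CCAAT and 3 E2F matches, of which 2 overlap each other. No CHR, CCAAT and E2F matches overlap each other in these 4 windows, and a match is a description of letters only.

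Other genes of the cycle were read from 10 lists with 178 tested members, none among the 32. Between the genotypes 0 of the 178 were called in either direction with 0 at an unadjusted p under 0.05 by edgeR, and their median log2 fold change was -0.07. At that unadjusted p there were 3 with the title number term, where 3.87% of all tested genes reached it, and 14 without the library labelled EphA2 null 1, where 7.13% did. Without that library, the libraries labelled EphA2 null all carry higher numbers, so the genotype difference there also holds part of the title number difference. The 2 smallest p-values belonged to Wee1, a brake on Cdk1, with -0.28 ± 0.15, and Cdkn1b, the CDK inhibitor p27, with -0.22 ± 0.12. Between the title numbers 92 of the 178 were lower and 14 higher, with a median of -0.39, against 20.1% and 24.6% of all tested genes. Without the library labelled EphA2 null 1 the counts were 22 lower and 2 higher, where 1.94% and 6.53% of all tested genes were called. With GC share and length as offsets they were 57 lower and 10 higher, where 8.83% and 13.0% were.

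Kinetochore and spindle lists had the highest shares of lower genes among the 10 lists. Of 23 other kinetochore and centromere genes 19 were lower and 0 higher, with a median of -0.81. Ndc80, Nuf2 and Spc25, 3 subunits of the complex that grips microtubules, had title number log2 fold changes of -1.08 ± 0.15, -0.94 ± 0.11 and -1.06 ± 0.12. Ndc80 was at 19.7, 7.57 and 10.1 CPM among libraries labelled EphA2 null, against 17.1, 17.4 and 8.57 CPM among wild type libraries, with the 3 higher-numbered libraries below the rest. Of 23 other spindle motor and cytokinesis genes 19 were lower and 0 higher, with a median of -0.69. Anln, which shapes the cleavage furrow, had -0.82 ± 0.08, Ckap2, a spindle protein, -0.99 ± 0.10 and Ect2, the trigger of the cleavage furrow, -0.81 ± 0.09. In the list of mitotic entry and checkpoint genes 9 of 17 were lower, among them the phosphatase gene Cdc25c with -0.94 ± 0.13, the checkpoint gene Mad2l1 with -0.82 ± 0.12 and the kinase gene Pbk with -0.76 ± 0.12. The list of anaphase-promoting complex, cohesin and condensin genes had 12 of 25 lower and 3 higher. Without the library labelled EphA2 null 1, 4 of 23 kinetochore, 9 of 23 spindle and cytokinesis and 3 of 17 mitotic entry genes were lower. So were 4 of 25 anaphase-promoting complex, cohesin and condensin genes. Of all tested genes 1.94% were lower in that fit, against 20.1% with all 6 libraries. The condensin genes Smc2, Smc4 and Ncapg had -0.89 ± 0.09, -0.62 ± 0.08 and -1.02 ± 0.14.

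Of 18 licensing and initiation genes 9 were lower and 1 higher, and Dbf4, Gmnn and Gins4 had -0.59 ± 0.11, -0.73 ± 0.14 and -0.68 ± 0.13. Of 25 polymerase and fork genes 12 were lower and 1 higher. The polymerase and primase genes Pola1 and Prim2 had -0.77 ± 0.15 and -0.79 ± 0.15, while the maintenance DNA methyltransferase gene Dnmt1 was the 1 higher gene with 0.69 ± 0.14. Of 10 nucleotide supply genes 5 were lower, and Tk1, Rrm1 and Paics had -0.81 ± 0.12, -0.63 ± 0.10 and -0.46 ± 0.09. Without the library labelled EphA2 null 1, the numbers lower were 1 of 18, 0 of 25 and 1 of 10 in these 3 lists. Of all tested genes 1.94% were lower in that fit, against 20.1% with all 6 libraries.

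Genes that act in G1 or stop the cycle were called in both directions, at shares near the 24.6% higher and 20.1% lower of all tested genes in the first and last of the 3 lists. Of 12 G1 cyclin and kinase genes 3 were higher and 3 lower in the libraries with higher title numbers. Ccnd1, the cyclin that links growth signals to the cycle, was at 220.3, 308 and 324 CPM among libraries labelled EphA2 null, against 249.8, 253 and 384 CPM among wild type libraries. Its log2 fold change was 0.57 ± 0.08 (adjusted p = 0.00242, edgeR). Cdk6 had 0.34 ± 0.10, and Mnat1, a subunit of the CDK-activating kinase, had -0.55 ± 0.11. Of 6 tested CDK inhibitor genes 2 were higher and 1 lower, Cdkn2a not being tested for low counts. Cdkn1a, the CDK inhibitor p21, was at 213, 421 and 318 CPM among libraries labelled EphA2 null, against 241, 215 and 344 CPM among wild type libraries. The 3 libraries with lower numbers were all below the other 3, and the log2 fold change was 0.69 ± 0.13 (adjusted p = 0.00451). Cdkn2b had 0.48 ± 0.15 and Cdkn2d -0.60 ± 0.13. Of 19 E2F, RB and DREAM genes 4 were higher and 3 lower, with E2f7, a repressor of E2F targets, at 0.88 ± 0.12, Mybl1 at -0.85 ± 0.15 and Lin9, a DREAM subunit, at -0.65 ± 0.14. Without the library labelled EphA2 null 1, 1 G1 cyclin or kinase gene, 0 CDK inhibitor genes and 1 E2F, RB or DREAM gene were called, all higher. Of all tested genes 6.53% were higher and 1.94% lower in that fit.

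Marker genes of cell types were read in the same comparison, where 24.6% of all tested genes were higher and 20.1% lower. Of 10 corneal epithelium markers 6 were higher and 1 lower in the libraries with higher numbers, and their summed level was 53174 to 58471 CPM there against 39347 to 43887 CPM. The differentiation factor gene Klf4 had a log2 fold change of 1.46 ± 0.19, Ppl 0.83 ± 0.12 and Elf3 0.72 ± 0.12. Of 11 basal epithelium markers 4 were higher and 0 lower, with Itgb4 at 1.20 ± 0.20, and the summed level was 39723 to 44196 CPM against 33172 to 37207 CPM. The basal keratin genes Krt5 and Krt14 did not pass.

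Most tested leukocyte markers were lower. Of 18 listed, 13 were tested, 10 were lower and 1 higher, and the summed level was 36.6 to 46.9 CPM with higher against 61.1 to 82.7 CPM with lower title numbers. Ptprc, which encodes the pan-leukocyte surface protein CD45, was at 1.93, 0.246 and 0.261 CPM among libraries labelled EphA2 null, against 1.40, 1.40 and 0.270 CPM among wild type libraries. Low-level markers such as Ptprc could pass the count filter through the libraries with lower numbers alone, so the tested set favours lower calls. With no filter beyond 1 count, 13 of 18 were lower and 1 higher, where 16.6% and 17.6% of all tested genes were. The T cell gene Cd3e had 0 counts in the library labelled EphA2 null 2 and in wild type 3, and Fcer1g, an Fc receptor subunit gene of myeloid and mast cells, had 0 in the libraries labelled EphA2 null 2 and 3. Conjunctival markers had 3 of 10 lower and 1 higher, including the goblet cell mucin gene Muc5ac at 58.7, 2.21 and 1.68 CPM among libraries labelled EphA2 null, against 38.5, 5.24 and 0.675 CPM among wild type libraries, and their summed level overlapped between the ranges. Among all tested genes 20.1% were lower and 24.6% higher, and a list of 10 genes gives only a rough share. Of the 10 conjunctival log2 fold changes 9 were below 0, with a median of -0.59, against -0.01 for all tested genes. Without the library labelled EphA2 null 2 the number lower was 9 of 10, where 19.9% of all tested genes were lower. Without wild type 1, 2 or 3 it was 2 of 10 each time, where 18.2%, 11.4% and 11.3% of all tested genes were lower. Of 12 keratocyte and fibroblast markers 3 were tested and 1 was lower, and of 7 vessel markers 1 was tested and 0 were called. Without the library labelled EphA2 null 1 the calls were 2 higher for corneal and 1 higher for basal markers, 1 higher and 1 lower for leukocyte and 1 lower for conjunctival markers. Of all tested genes 6.53% were higher and 1.94% lower in that fit. Between the genotypes 0 genes of these marker lists were called. The part of leukocytes, conjunctival cells or differentiation in the cell cycle result was not tested.

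Each of the 32 genes had at least 72 counts in each library and up to 8278. For 9 of them an exon overlaps a gene on the opposite strand in GENCODE M21 (Ccna2, Ccne2, Cdc20, Cdca8, Mcm7, Nusap1, Plk1, Prc1 and Ube2c), and without a stated strand setting their reads and those of the overlapping gene cannot be told apart. Ccnb1, Ccnb2, Pcna and Tyms have annotated pseudogene copies, so their counts are uncertain to that extent.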

How the data were processed

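Corneal epithelial RNA from 6 libraries was measured by Illumina RNA sequencing. The authors deposited 1 table of raw counts per gene (whole numbers, Ensembl identifiers). For aligner, counter, strand setting, build and annotation the entry is "not given in the sources used here", and 0 other sample columns were present. A reference name table gave symbols for 24942 of 25006 identifiers, and positions are from GENCODE M21 (GRCm38). Counts were TMM-scaled, filtered with filterByExpr (12847 genes) and tested with edgeR 4.0.16 (glmQLFit, glmQLFTest) in R 4.3.3, with genotype alone, and with genotype plus title number range for the title number difference. Calls are at a Benjamini-Hochberg adjusted p under 0.05 over all tested genes. The SE is the log2 fold change divided by the square root of F, and 95% intervals use edgeR's degrees of freedom. Alternatives were DESeq2 1.42.0, limma voom (limma 3.58.1), other scalings and filters, samples left out, samples sharing a title number summed, and offsets for GC share and length. edgeR was also run on simulated counts. For the genotype these held no title number difference, so they do not measure the power of the genotype test here. No 2 libraries of a genotype agreed within sampling noise (the smallest chi-square over its degrees of freedom was 10.6). Pairs that share a title number differed least, at 10.6 for wild type 1 and 2 and 27.85 for the libraries labelled EphA2 null 2 and 3. Pairs with different numbers ran from 42.7 to 131.1, and each of these pairs also crossed the 2 ranges. A shared number and a shared range thus cannot be told apart in these values. Whether libraries that share a number are independent is not known. The genes, lists, motifs and named genes were chosen with earlier results of these data known. Values in every library are given for the 2 genes with the smallest p for each comparison in each role and for each called gene; of the other lists up to 3 called genes, or the smallest p, are named. The keratin levels and the keratocyte genes Kera and Lum were chosen after their values were seen.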

Additional observations from a re-analysis of the deposited data

How the results depend on the processing

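For the genotype, 0 of the 32 genes were called in any of the 16 alternatives. Over all genes 1 was called higher and 0 lower, against 4 higher and 1 lower in DESeq2, 0 higher with samples sharing a title number summed, and 3 higher with the title number term and the GC and length offsets. The genotype median was between -0.27 and 0.03 with 1 library left out, and above 0 without the library labelled EphA2 null 2 (0.03), with summed samples (0.05) and with the title number term (0.05, or 0.04 with the offsets too). With the library labelled EphA2 null 1 left out, 2 of the 32 had an unadjusted p under 0.05, where 7.13% of all tested genes did. The libraries left of that label all carry higher numbers, so that genotype difference also holds part of the title number difference.

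For title numbers, the 18 lower genes were all called under the 8 alternatives of scaling, filter, test, summing or terms, and Ccnb2 also passed with library size only and with no filter. Leaving out 1 library gave 9 to 19 lower genes: 16 without wild type 3, when Rrm2 and Aurka did not pass, 19 without the library labelled EphA2 null 2 (Ccnb2 added) or 3 (Mcm5 added), and 9 without the library labelled EphA2 null 1, when Mki67, Tpx2, Ccna2, Aurka, Ccne2, Mcm7, Pcna, Tyms and Rrm2 did not pass. None of the 32 genes called in either setting changed direction. With library size only, which moves the median of all genes from -0.01 to -0.13, the median was -0.60, 2449 genes were higher and 3667 lower, and the log2 ratio of summed levels -0.64, against -0.52 with TMM, and the mean of log2 CPM over the genes differed by -0.37. All genes called higher numbered 3154, and between 850 and 3221 with 1 library left out, and those called lower 2586, and between 253 and 2582. With GC and length offsets they numbered 1664 and 1135. Every fit with 1 library left out has fewer residual degrees of freedom. Without the library labelled EphA2 null 1, the title number difference rests on wild type 3 against wild type 1 and 2 alone. Without wild type 3 it rests on the libraries labelled EphA2 null alone. The cause of these changes was not tested. No paired analysis was run. The genotypes share no replicate or title number in the labels, and the title letter N, found in both, is not explained there. The fit with the title number range as a second term, given above, blocks by range. Library number, with 3 per genotype, limits what could be detected.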
